A study of Oryza sativa with 12 samples.

Results

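The difference between the 4 h auxin responses of crl1 and wild-type rice was measured gene by gene. It is the log2 signal of crl1 at 4 h minus crl1 at 0 h, from which the log2 signal of wild type at 4 h minus wild type at 0 h was taken away. A positive value means that a transcript was higher after 4 h, relative to its own start, in crl1 than in wild type. The contrast uses 8 of the 12 arrays of the series, 2 for each genotype and time. Genes were named as higher or lower only where its sign was the same in both repetitions of the experiment. Some members of gene lists and some genes set by name are also given, whatever their signs. The other 4 arrays, taken at 2 h, entered the estimate of the spread between arrays.

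The groups were crl1 at 4 h, crl1 at 0 h, wild type at 4 h and wild type at 0 h, all in the cultivar Taichung 65. Seedlings aged 8 days stood in liquid Murashige and Skoog medium, to which indole-3-acetic acid, the main natural auxin, was added to a final 1e-06 M. The 0 h samples were taken just before, and RNA of 20 stem bases went into each extract. The allele of crl1 is not named in the labels, and the level of CRL1 itself was not analysed here. Arrays of seedlings held for 4 h without added auxin were not analysed here, so the effects of auxin and of the passing hours cannot be told apart in any response below. In bulk tissue, fewer cells of a type and less RNA per cell cannot be told apart either.

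CRL1 is a transcription factor of the LOB-domain family that rice needs to start crown roots, the roots that form on the stem base. Auxin induces it through auxin response factors, and plants without its function form no crown roots. Auxin also induces its own brakes, among them the Aux/IAA repressors and the GH3 enzymes that conjugate it to amino acids, so a response at 4 h can hold both the first induction and its decline.

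The signals are Affymetrix MAS5 values, 1 linear number per probe set, and were compared on the log2 scale with limma. Over the 12 arrays the median rice signal was between 9.39 and 12.7. Background was the level that 95% of 64 reporter probe sets for genes absent from rice stay under, and 42.8% to 57% of the rice signals exceeded it. Wild type 2 h repetition 2 stood apart in its 18S rRNA signal, 556 against 3400 to 5290 on the other arrays. It is not in the contrast but adds to the shared spread, and leaving it out gave no gene past the threshold (lowest limma adjusted p = 0.207). The GAPDH 3' to 5' ratio, a sign of RNA integrity, was 6.81 and 8.11 in crl1 at 4 h and 3.08 and 8.72 in crl1 at 0 h, against 8.34 and 7.16 in wild type at 4 h and 9.41 and 17.3 in wild type at 0 h. Among these 8 arrays the lowest ratio, 3.08, was on 1 crl1 array and the highest, 17.3, on 1 wild-type array, both at 0 h. The part of this ratio in the differences was not tested. Of the KNOX homeobox genes set as markers of the shoot meristem and stem base, 5 were found by name on the array, and all of these were kept. Their summed signal was 2050 to 2243 in crl1 at 4 h and 2440 to 2569 in crl1 at 0 h, against 1930 to 2389 in wild type at 4 h and 2434 to 2913 in wild type at 0 h. Each of the 5 lay above background on both arrays of each group, except 1 in wild type at 4 h. Among the 6 root markers found by name on the array, summed signals were 1223 to 1434 and 1322 to 1421 in crl1 at 4 h and 0 h, and 1819 to 1877 and 1090 to 1297 in wild type at 4 h and 0 h. The silicon carrier LSI1 made up most of each sum, so the sums say little about the other root markers. In crl1 at 0 h, 4 of the 6 lay above background on both arrays, and all 6 did in each other group of the contrast.

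No probe set passed the test of the difference of 4 h responses. Of 32524 probe sets 1090 (3.35%) had an unadjusted limma p under 0.05. That share lies below 0.05, the share this threshold gives on average where no response differs. At a limma adjusted p under 0.05 there were 0 (0.0%), the lowest adjusted p being 0.99. The count was 0 in the other 21 settings as well, where the lowest adjusted p was 0.0773. This does not show that the genotypes responded alike, because the median standard error of a difference was 0.481 log2 units, and 0.34 among bright probe sets. The values below therefore describe these 8 arrays, with 95% intervals for the genes that matter most, and no gene named is called changed in this contrast.

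The repetitions shared the sign of the difference for 20341 probe sets (62.5%), 11588 of them higher and 8753 lower in crl1. Across the kept probe sets, which are not independent replicates, the 2 repetitions correlated with r = 0.129. In 989 probe sets both repetitions reached 1 log2 unit with the same sign and at least 1 group lay above background. These were higher in crl1 in 557 cases and lower in 432, that is 56.3% higher, and 49.4% were higher after quantile normalization. Among genes, each given by its brightest probe set, 162 were higher and 69 lower in that way, and 36 and 9 of these had a name of their own. Of all 16438 genes 58.8% had a difference above 0. The split among genes was not repeated after quantile normalization.

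**Figure D1:**
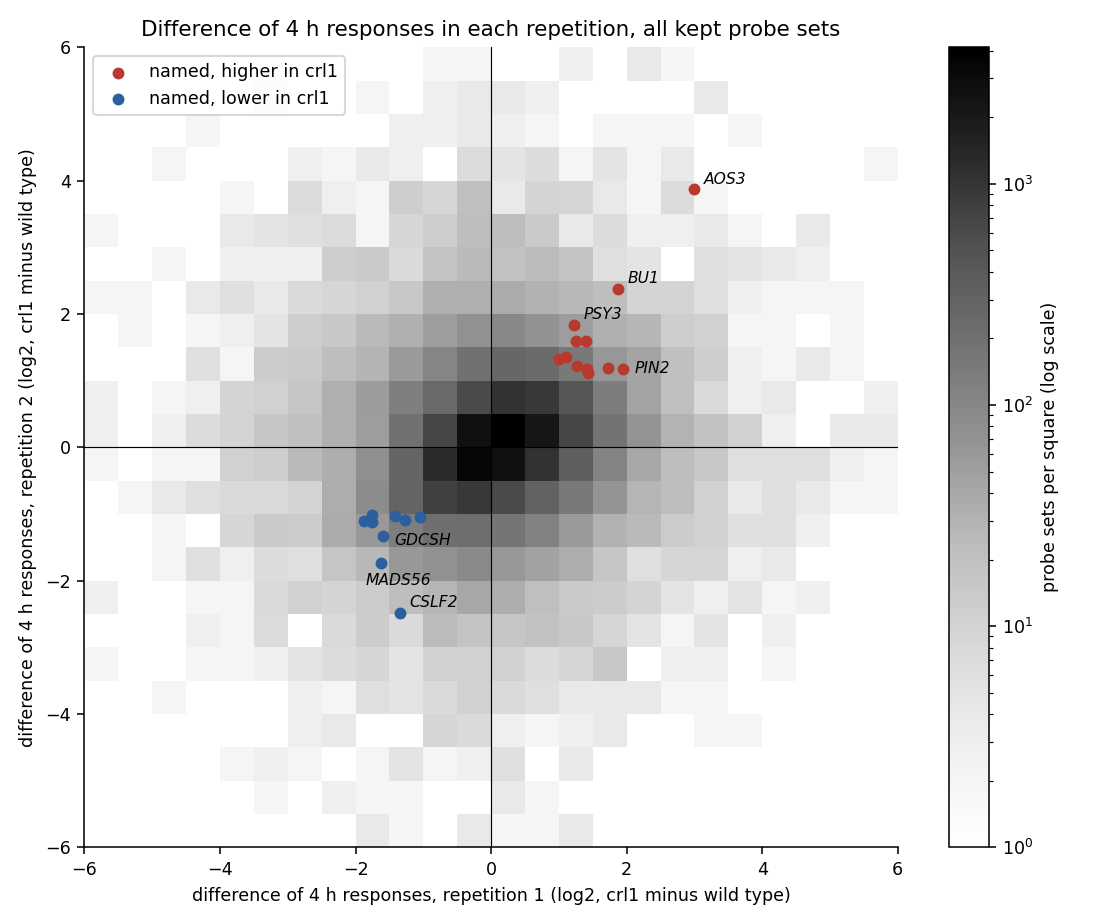
Difference of the 4 h responses (log2, crl1 minus wild type) in repetition 1 (x axis) and repetition 2 (y axis) for the 32524 kept probe sets, shaded by the number per square of 0.5 log2 units, with values beyond the axes drawn in the outermost squares. Red and blue points are the 12 named genes higher and the 9 lower in crl1, which lie at least 1 log2 unit from 0 in both repetitions because the naming rule asked for it.

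The genes that were higher mostly had opposite responses. Of the 162, 152 had a wild-type response below 0, and 141 of these had a crl1 response above 0. Their median response was 0.785 log2 units in crl1, against -0.645 in wild type. Of the 69 lower genes, 59 had a wild-type response above 0 and 47 of these a crl1 response below 0, with medians of -0.643 in crl1 and 0.814 in wild type. Over all 16438 genes the medians were 0.07 in crl1 and -0.023 in wild type. The contrast itself chose these genes, so the opposite signs are a description.

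Auxin inactivation and transport come first. GH3.1 (LOC4327043), a GH3 enzyme, had signals of 303 and 334 in crl1 at 4 h and 191 and 277 in crl1 at 0 h, against 140 and 202 in wild type at 4 h and 293 and 383 in wild type at 0 h. At 4 h both crl1 arrays lay above both wild-type arrays, and at 0 h both lay below them. The difference of responses was 1.46 ± 0.47 log2 units (SE, n = 2 arrays per group; 95% interval 0.42 to 2.50), with 1.72 and 1.19 in the repetitions. At 2 h, GH3.1 had reached 946 and 798 in crl1, against 447 and 898 in wild type.

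GH3-8 (LOC4343785), picked with its values in view like other list members outside the naming rule, had a difference of 0.95 ± 0.34. GH3.2 (LOC4326893), another such enzyme, had signals of 3110 and 3146 in crl1 at 4 h and 166 and 210 in crl1 at 0 h, against 3796 and 1688 in wild type at 4 h and 205 and 290 in wild type at 0 h. It rose in both genotypes, by 4.06 ± 0.39 in crl1 (limma adjusted p = 0.011) and 3.38 ± 0.39 in wild type (adjusted p = 0.026). Its difference was 0.69 ± 0.56 (-0.54 to 1.92), with 0.01 in repetition 1 and 1.36 in repetition 2. Of the 9 GH3 and IAMT enzymes kept, 6 were above 0 with a median of 0.63 (0.381 without wild type 4 h repetition 2), and 0 passed in either direction. For comparison, 58.8% of all genes were above 0, with a median of 0.0862. At an unadjusted p under 0.05, 2.1% of all genes were higher and 0.639% lower, and of the enzymes GH3.1 and GH3-8 were.

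PIN2 (LOC4341736), an auxin efflux carrier of the root, had signals of 12.6 and 11.6 in crl1 at 4 h and 4.53 and 6.02 in crl1 at 0 h, against 24.1 and 33.9 in wild type at 4 h and 33.3 and 39.8 in wild type at 0 h. Both crl1 arrays lay below both wild-type arrays at either time, by a wider margin at 0 h. At 0 h crl1 was at or below background, which makes wild type at least 3.17-fold higher there. The difference of responses was 1.56 ± 0.55 (0.35 to 2.77), but 0.42 with signals floored at background. The 14 auxin carriers and YUC genes kept had a median of 0.16, which turned to -0.13 under that floor, with 8 above 0 and 0 past the threshold.

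The Aux/IAA repressors, which hold auxin response factors inactive until auxin degrades them, lay on both sides of 0. Of 25 kept, 14 were above 0, the median was 0.03 and 0 passed. IAA31 (LOC4352722) had the lowest p among them, with 1979 and 2070 in crl1 at 4 h and 2029 and 1802 in crl1 at 0 h, against 1056 and 1434 in wild type at 4 h and 1824 and 2198 in wild type at 0 h. The 4 h arrays of the genotypes did not overlap and the 0 h arrays did, for a difference of 0.78 ± 0.30 (0.12 to 1.45).

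One of the genes named IAA20 (LOC4340245) had 568 and 275 in crl1 at 4 h and 15.3 and 10.5 in crl1 at 0 h, against 652 and 85.4 in wild type at 4 h and 16.7 and 26.2 in wild type at 0 h. Its repetitions disagreed, at -0.07 and 3.01, since wild type 4 h repetition 2 was low. The difference was 1.47 ± 1.02 (-0.79 to 3.72). The other gene of that name (LOC4327919) had -0.30 ± 0.69, with opposite signs in the repetitions. The auxin response factors, which bind the promoters of auxin-induced genes, were all above 0: 16 of 16 kept, with a median of 0.42. Of them 2 had an unadjusted p under 0.05, where 2.1% of all genes were higher, and 0 passed. The median was 0.231 without crl1 0 h repetition 1, and 14 were above 0 with either wild type 4 h repetition 2 or crl1 4 h repetition 1 left out. ARF16 (LOC4327785) had 421 and 367 in crl1 at 4 h and 346 and 332 in crl1 at 0 h, against 287 and 369 in wild type at 4 h and 534 and 507 in wild type at 0 h. Its difference was 0.89 ± 0.32 (0.19 to 1.60), and the largest gap between the genotypes stood at 0 h, where wild type was higher.

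Among the regulators of crown roots, WOX11 (LOC4344325), a homeobox factor that activates the emergence and growth of crown roots in rice, had 389 and 359 in crl1 at 4 h and 414 and 362 in crl1 at 0 h, against 263 and 176 in wild type at 4 h and 362 and 452 in wild type at 0 h. The crl1 arrays overlapped between the times, while both wild-type arrays were lower at 4 h than at 0 h. The difference was 0.86 ± 0.37 (0.06 to 1.67; unadjusted p = 0.038, limma adjusted p = 0.99), with 0.37 and 1.35 in the repetitions. At 2 h WOX11 stood far above both times, at 1897 and 2307 in crl1 and 1659 and 1114 in wild type.

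WOX6 (LOC4332705), a member of the same family, had 105 and 71.7 in crl1 at 4 h and 70.4 and 67.6 in crl1 at 0 h, against 58.4 and 51.1 in wild type at 4 h and 105 and 104 in wild type at 0 h. The order of the genotypes turned between the times without overlap. The difference was 1.27 ± 0.33 (0.55 to 1.99), and at 2 h the gene had 589 and 503 in crl1, against 338 and 408 in wild type. WOX9 (LOC4324824), also called QHB and known from the quiescent centre of rice roots, was dim, with 9.09 and 17.9 in crl1 at 4 h and 5.47 and 6.32 in crl1 at 0 h, against 14.3 and 23.2 in wild type at 4 h and 13.1 and 16.4 in wild type at 0 h. The crl1 0 h arrays were at or below background, and the difference of 0.80 ± 0.79 (-0.94 to 2.55) turned to -0.16 with signals floored there. Of the 5 WOX factors kept, 4 were above 0 (median 0.80) and 0 passed. The median was 0.249 with 3 above 0 under the floor and 0.247 with 16 added to each signal. It was 0.317 with crl1 4 h repetition 2 left out and 0.453 with wild type 4 h repetition 1 left out.

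RAA1 (LOC4326229), a gene of root architecture in rice, had 54.5 and 42.9 in crl1 at 4 h and 12.1 and 21.8 in crl1 at 0 h, against 92 and 98.3 in wild type at 4 h and 64.4 and 94 in wild type at 0 h. It stayed lower in crl1 at both times, with a gap of -0.98 ± 0.32 at 4 h and -2.26 ± 0.32 at 0 h. The difference of responses was 1.28 ± 0.45 (0.30 to 2.27), with 1.66 and 0.91 in the repetitions. SCR1 (LOC4349638) and SHR1 (LOC4343753), named for the radial patterning factors SCARECROW and SHORT-ROOT, had 0.60 ± 0.60 and 0.40 ± 0.46. The 6 root markers, PIN2, RAA1, SCR1 and SHR1 among them, had a median of 0.50 (0.163 without wild type 4 h repetition 1, 0.836 without repetition 2), which became -0.81 under the stricter filter that left the silicon carriers LSI1 and LSI2.

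LSI1 (LOC4330713), the silicon influx carrier of rice roots, went the other way. It had 1111 and 956 in crl1 at 4 h and 1067 and 1214 in crl1 at 0 h, against 1465 and 1477 in wild type at 4 h and 961 and 795 in wild type at 0 h. Its difference was -0.90 ± 0.26 (-1.47 to -0.32), with -0.55 and -1.24 in the repetitions.

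The gene with the lowest p of all named genes was BU1 (LOC4340551), a helix-loop-helix protein that brassinosteroids induce and that promotes their response in rice. It had 430 and 453 in crl1 at 4 h and 262 and 335 in crl1 at 0 h, against 221 and 131 in wild type at 4 h and 490 and 505 in wild type at 0 h. The genotypes did not overlap at either time and their order was reversed between the times. The difference was 2.12 ± 0.40 (1.25 to 2.996; unadjusted p = 0.00024, limma adjusted p = 0.99), with 1.87 and 2.38 in the repetitions, and ran from 1.75 to 2.50 over the 21 other settings. In both genotypes BU1 was highest at 2 h, with 1076 and 1287 in crl1 and 856 and 1302 in wild type. BRI1 (LOC4324691), the brassinosteroid receptor kinase, had a difference of 0.90 ± 0.38 (0.06 to 1.75).

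**Figure D2:**
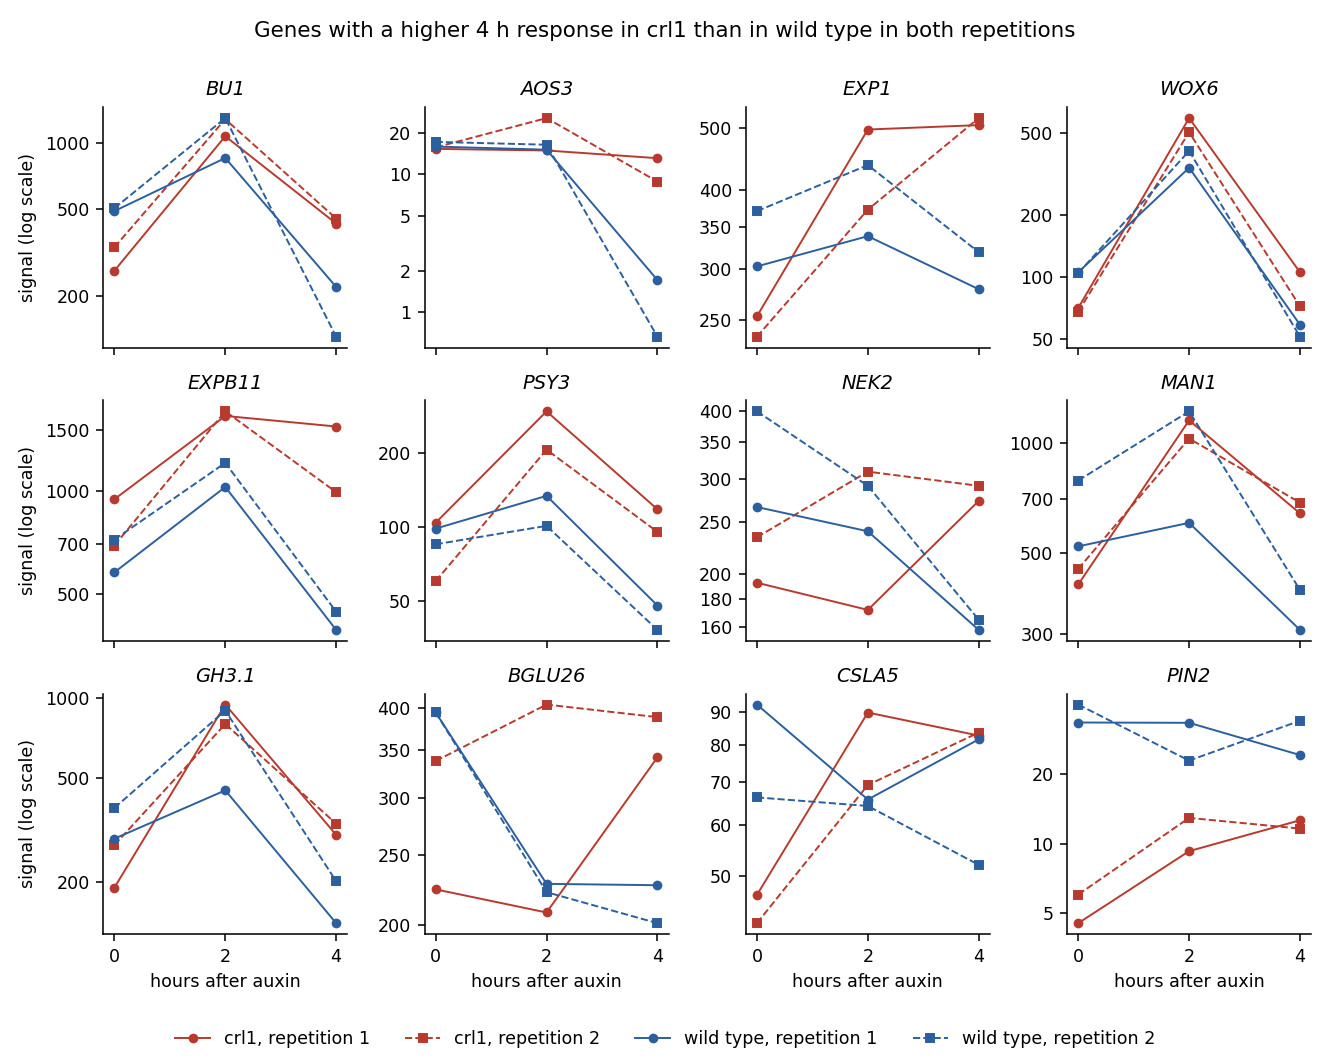
Signals (log scale, a separate axis per gene) at 0, 2 and 4 h after auxin of the 12 named genes with a higher 4 h response in crl1, in order of p, with crl1 in red, wild type in blue, repetition 1 as circles and solid lines and repetition 2 as squares and dashed lines. In 11 of the 12 genes both crl1 arrays lay above both wild-type arrays at 4 h (26.5% of all genes), PIN2 being the exception, and in 10 both lay below at 0 h (25.9% of all genes). The same arrays chose the genes.

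Wall genes come next. EXP1 (LOC4335222), an expansin, that is a protein that loosens walls for growth, had 505 and 518 in crl1 at 4 h and 253 and 235 in crl1 at 0 h, against 279 and 319 in wild type at 4 h and 303 and 370 in wild type at 0 h. Both crl1 signals at 4 h exceeded every other signal of these 4 groups. The difference was 1.23 ± 0.31 (0.55 to 1.91), mostly from a crl1 response of 1.07 ± 0.22, against -0.17 ± 0.22 in wild type.

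EXPB11 (LOC4330213), a beta-expansin, had 1537 and 989 in crl1 at 4 h and 943 and 691 in crl1 at 0 h, against 392 and 443 in wild type at 4 h and 577 and 719 in wild type at 0 h. At 0 h the genotypes overlapped, and at 4 h they were apart by 1.56 ± 0.25. The difference of responses was 1.24 ± 0.35 (0.47 to 2.01). Of 25 expansins and XTH enzymes kept, 17 were above 0 with a median of 0.28 (0.0862 over all genes), 0 passed and 6 had an unadjusted p under 0.05. At that level 2.1% of all genes were higher and 0.639% lower. The median was 0.631 or 0.143 with wild type 0 h repetition 1 or 2 left out and 0.466 with wild type 4 h repetition 2 left out, while 14 to 21 were above 0 when 1 array was left out. Besides EXP1 and EXPB11, the 6 were EXP2 (LOC4327568, 0.87 ± 0.26), EXP6 (LOC4332763, 1.17 ± 0.50), EXLA3 (LOC4343213, 0.75 ± 0.33) and, on the other side of 0, EXLA2 (LOC4349265, -1.11 ± 0.47).

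Enzymes that build or trim wall polysaccharides were also named. MAN1 (LOC4327860), named for a mannan-cleaving enzyme, had 641 and 686 in crl1 at 4 h and 410 and 452 in crl1 at 0 h, against 308 and 396 in wild type at 4 h and 521 and 788 in wild type at 0 h. As in BU1, the order of the genotypes was reversed between the times without overlap, and the difference was 1.50 ± 0.44 (0.52 to 2.47). CSLA5 (LOC4332966), of the cellulose synthase-like family that makes mannan backbones, had 82.6 and 83.5 in crl1 at 4 h and 46.7 and 42.2 in crl1 at 0 h, against 81.5 and 52 in wild type at 4 h and 92.3 and 66.2 in wild type at 0 h. Its difference of 1.17 ± 0.39 (0.30 to 2.03) came mainly from the low crl1 signals at 0 h. BGLU26 (LOC4344146), a beta-glucosidase, had 342 and 389 in crl1 at 4 h and 224 and 338 in crl1 at 0 h, against 227 and 201 in wild type at 4 h and 395 and 395 in wild type at 0 h, for a difference of 1.29 ± 0.42 (0.36 to 2.23).

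The cellulose synthases, the plasma membrane enzymes that spin cellulose, were above 0 in 9 of 9 cases with a median of 0.60, while 0 passed. CESA5 (LOC4334710), with the lowest p, had 875 and 905 in crl1 at 4 h and 676 and 788 in crl1 at 0 h, against 448 and 619 in wild type at 4 h and 603 and 836 in wild type at 0 h. Its difference was 0.72 ± 0.32 (0.01 to 1.42). The median over the 9 genes was 0.81 in repetition 1 and 0.20 in repetition 2, and 6 of them had the same sign in both. It was 0.379 with 8 above 0 when wild type 4 h repetition 1 was left out, 0.396 when wild type 0 h repetition 2 was, and 0.448 with 7 above 0 when crl1 4 h repetition 1 was. Among the 18 cellulose synthase-like genes, 14 were above 0 with a median of 0.46, which was 0.197 with crl1 0 h repetition 1 left out and 0.69 with repetition 2 left out.

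The kinesins are a family of motor proteins, some of which act in the spindle and the division plane. Of 34 kept, 32 were above 0 with a median of 0.65, against 58.8% and 0.0862 over all genes, and 0 passed. The median was 0.77 in repetition 1 and 0.45 in repetition 2, and 26 genes were above 0 in both. It was 0.56 after quantile normalization, and 0.42 (without wild type 4 h repetition 1) to 0.80 when 1 array was left out. The response was above 0 in 32 of these genes in crl1 (median 0.42) and in 8 in wild type (median -0.19). KIN5A (LOC9268593), of the kinesin-5 family of spindle motors, had 127 and 130 in crl1 at 4 h and 80.3 and 97.1 in crl1 at 0 h, against 80 and 84.7 in wild type at 4 h and 104 and 126 in wild type at 0 h, a difference of 1.01 ± 0.31 (0.33 to 1.70). KCBP (LOC4337322), a calmodulin-binding kinesin, had 0.96 ± 0.35.

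NEK2 (LOC4352734), named for the NIMA-related kinases, had 273 and 291 in crl1 at 4 h and 193 and 234 in crl1 at 0 h, against 158 and 165 in wild type at 4 h and 266 and 399 in wild type at 0 h. As in MAN1, the genotypes did not overlap at either time, and the difference was 1.42 ± 0.41 (0.51 to 2.33). The separate list of cell cycle and DNA replication genes had 44 of 68 above 0 (64.7%, against 58.8% of all genes) and a median of 0.16 (0.073 without wild type 0 h repetition 2, 0.323 without repetition 1), with 0 past the threshold and 0 at an unadjusted p under 0.05. CYCD4-2 (LOC4345844), a D-type cyclin, had the lowest p there (0.83 ± 0.39, -0.02 to 1.68). H2B.7 (LOC4324500), a histone of the nucleosome core, had -0.68 ± 0.30, and 2 of 7 histones were above 0.

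**Figure D3:**
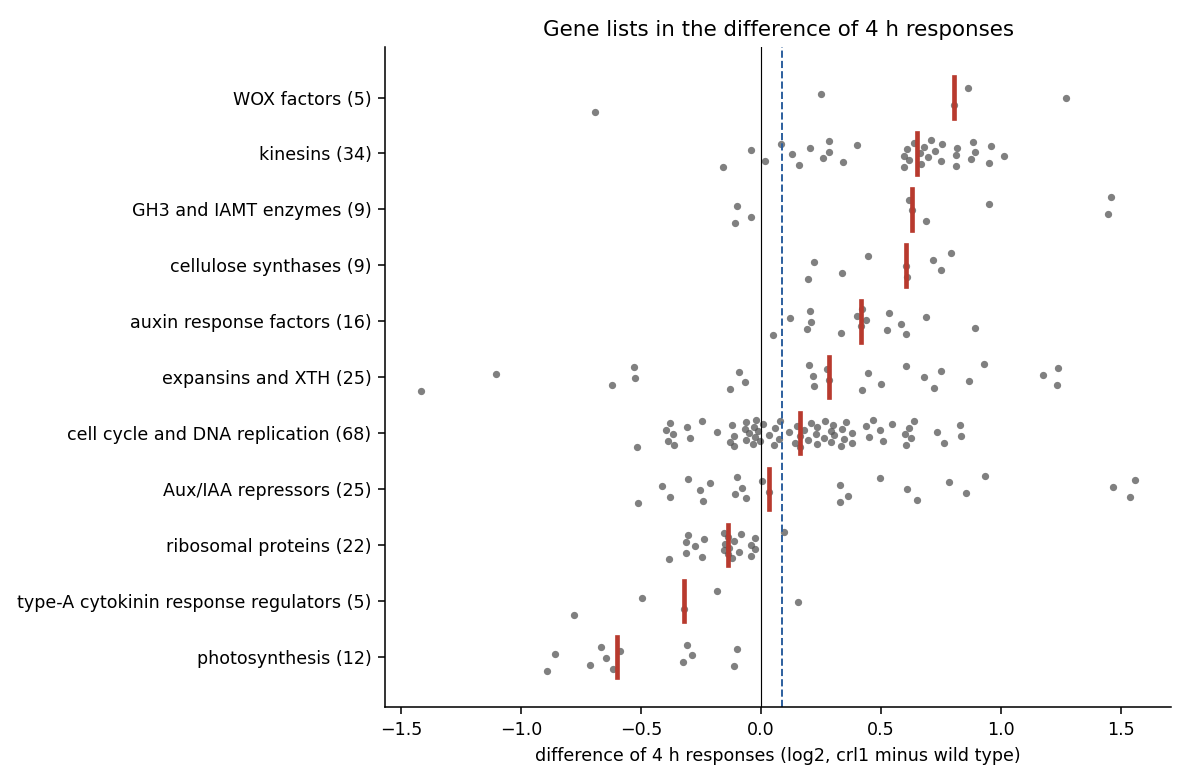
Difference of 4 h responses (log2, crl1 minus wild type, x axis) of each kept member of 11 gene lists, with the number of members in brackets, the list median as a red bar and the median of all genes (0.0862) as a dashed blue line. Kinesins, cellulose synthases and auxin response factors lie almost wholly right of 0. Photosynthesis genes lie wholly and ribosomal protein genes almost wholly left of it, and no member passed the test.

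Metabolic genes were named in both directions. PSY3 (LOC4347813), a phytoene synthase at the entry to carotenoid synthesis, had 118 and 95.4 in crl1 at 4 h and 104 and 60 in crl1 at 0 h, against 47.7 and 37.9 in wild type at 4 h and 98.4 and 84.9 in wild type at 0 h. At 0 h the genotypes overlapped, and at 4 h crl1 was higher by 1.32 ± 0.31. The difference of responses was 1.53 ± 0.44 (0.56 to 2.49). AOS3 (LOC4328742), an allene oxide synthase of the jasmonate pathway, had 13.1 and 8.86 in crl1 at 4 h and 15.3 and 15.7 in crl1 at 0 h, against 1.71 and 0.664 in wild type at 4 h and 15.9 and 17.2 in wild type at 0 h. Wild type at 4 h was not above background. In crl1 at 4 h, the 8.86 of repetition 2 also lay under its array's background of 9.04, so no fold is given there. The difference of 3.43 ± 0.80 (1.67 to 5.20) shrank to 0.29 with signals floored at background. Of 32 jasmonate and TIFY genes kept, 16 were above 0, with a median of -0.001 that quantile normalization turned to 0.012.

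Of the 9 genes named as lower, some act in photosynthesis or photorespiration. ALDP (LOC4349897), a plastid aldolase of the Calvin cycle, had 1159 and 1892 in crl1 at 4 h and 2133 and 2965 in crl1 at 0 h, against 3171 and 3121 in wild type at 4 h and 2411 and 2295 in wild type at 0 h. Only the 4 h arrays were apart, and the difference was -1.18 ± 0.36 (-1.98 to -0.39). GDCSH (LOC4349114), the H protein of the glycine decarboxylase of photorespiration, had 73.5 and 79.3 in crl1 at 4 h and 103 and 93.9 in crl1 at 0 h, against 143 and 92 in wild type at 4 h and 66.6 and 43.5 in wild type at 0 h. The difference was -1.46 ± 0.41 (-2.37 to -0.56). A dimmer probe set of GDCSH, at or below background in 3 of the 4 groups, gave 3.90.

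LIR1 (LOC4326442), a light-induced chloroplast protein, had 1161 and 1662 in crl1 at 4 h and 745 and 838 in crl1 at 0 h, against 4178 and 2737 in wild type at 4 h and 1290 and 672 in wild type at 0 h. It was higher at 4 h than at 0 h in all 4 pairs of arrays, more so in wild type, and the difference was -1.05 ± 0.59 (-2.34 to 0.25). RBCS (LOC4351966), the small subunit of Rubisco, had 807 and 1056 in crl1 at 4 h and 1127 and 1333 in crl1 at 0 h, against 2243 and 1856 in wild type at 4 h and 1551 and 1372 in wild type at 0 h. Its difference was -0.89 ± 0.31 (-1.57 to -0.22), and its other probe sets gave -0.69 and -0.49.

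Of the 12 photosynthesis genes kept, 0 were above 0, the median was -0.60, 10 had the same sign in both repetitions and 0 passed. RBCS, FBPASE (LOC4332364, -0.86 ± 0.34) and PETC (LOC4343570, -0.71 ± 0.30) had an unadjusted p under 0.05. At that level 0.639% of all genes were lower. After quantile normalization 2 of the 12 were above 0 and the median was -0.38, and it was -0.39 without crl1 4 h repetition 1. Without wild type 0 h repetition 1 or wild type 4 h repetition 2, 2 were above 0, and 1 was without crl1 4 h repetition 2. The median response of the list was -0.39 in crl1, against 0.08 in wild type. The 3 green leaf markers kept (RBCS, RCA and CAB2R, all of them in that list) summed to 8069 to 9874 in crl1 at 4 h and 8874 to 11781 in crl1 at 0 h, against 12073 to 12282 in wild type at 4 h and 10022 to 11502 in wild type at 0 h. The part that the amount of green tissue per sample has in these values was not tested. Of 22 ribosomal protein genes 1 was above 0, with a median of -0.14 that quantile normalization turned to 0.097.

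**Figure D4:**
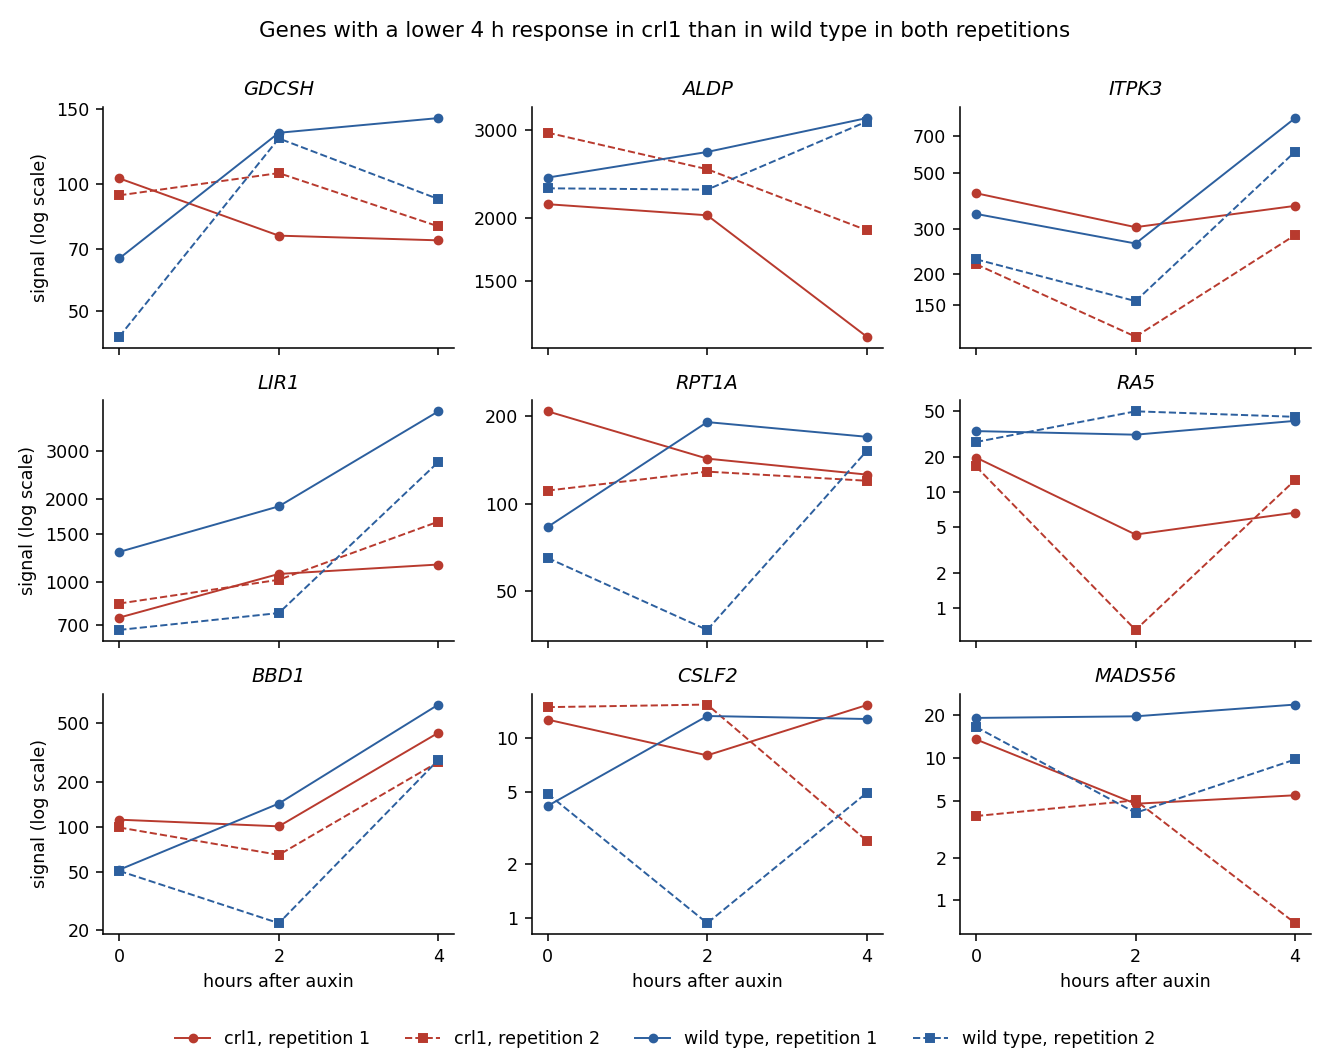
Signals (log scale, a separate axis per gene) at 0, 2 and 4 h after auxin of the 9 named genes with a lower 4 h response in crl1, in order of p, with crl1 in red, wild type in blue, repetition 1 as circles and solid lines and repetition 2 as squares and dashed lines. In 8 of the 9 both wild-type arrays were higher at 4 h than at 0 h (19.2% of all genes), and in 7 both crl1 arrays lay below both wild-type arrays at 4 h (21.4% of all genes). The same arrays chose the genes, so nothing is read from these shares.

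The other named genes with lower values had wider intervals, all of which held 0. ITPK3 (LOC4333967), an inositol phosphate kinase, had 370 and 284 in crl1 at 4 h and 415 and 218 in crl1 at 0 h, against 820 and 605 in wild type at 4 h and 344 and 228 in wild type at 0 h, with a difference of -1.23 ± 0.66. Its other probe set, which did not exceed background in the crl1 0 h arrays, gave 0.01. BBD1 (LOC4326932), a nuclease of basal defence in rice, had 433 and 275 in crl1 at 4 h and 112 and 99.2 in crl1 at 0 h, against 671 and 284 in wild type at 4 h and 51.4 and 50.5 in wild type at 0 h. The genotypes overlapped at 4 h, and the difference of -1.38 ± 0.98 came mainly from the higher crl1 signals at 0 h.

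RPT1A (LOC4330943), an ATPase subunit of the proteasome, had 126 and 120 in crl1 at 4 h and 208 and 111 in crl1 at 0 h, against 170 and 152 in wild type at 4 h and 83.2 and 65.1 in wild type at 0 h (-1.44 ± 0.83). RA5 (LOC4342727), with 6.6 and 12.6 in crl1 at 4 h and 19.7 and 16.5 in crl1 at 0 h against 40.8 and 44.2 in wild type at 4 h and 33.3 and 26.8 in wild type at 0 h, had -1.49 ± 1.03. CSLF2 (LOC4343553), of the family that makes mixed-linkage glucan, and MADS56 (LOC4349237), a MADS-box factor of flowering, were dim, with signals of at most 23.7 in these groups. Their differences of -1.92 ± 1.67 and -1.68 ± 1.51 became -0.78 and -0.25 with signals floored there.

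**Figure D5:**
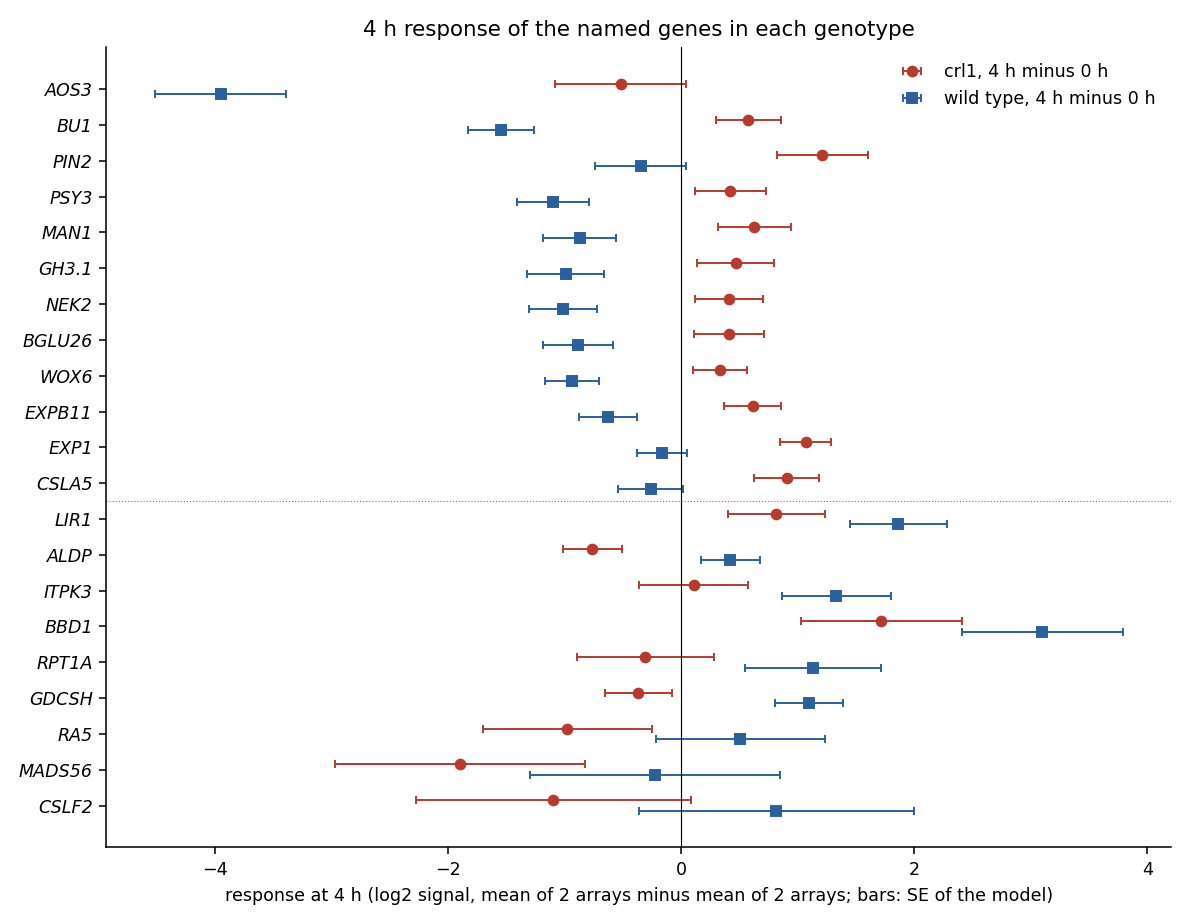
Response at 4 h (log2 signal at 4 h minus 0 h, x axis) of the 21 named genes in crl1 (red circles) and wild type (blue squares), with bars for the standard error of the limma fit and a dotted line between the 12 higher and the 9 lower genes. All 12 wild-type responses of the upper group are below 0 and 11 of the crl1 responses are above 0, AOS3 being the exception. The same arrays chose the genes.

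Across the 12 genes named as higher, both wild-type arrays were lower at 4 h than at 0 h in 9 (23.2% of all genes), and both crl1 arrays were higher at 4 h than at 0 h in 10 (26.1% of all genes). At 4 h both crl1 arrays lay above both wild-type arrays in 11 genes, as they did in 26.5% of all genes. At 0 h both lay below in 10, as they did in 25.9% of all genes. These arrays chose the genes, so nothing is read from the contrast between the shares. The differences at 2 h share the 0 h arrays with those at 4 h. At 2 h they had a median of 0.91 (1.09 without wild type 2 h repetition 2), and at 4 h of 1.44. For the 9 lower genes the medians were -0.24 at 2 h (-1.44 without that array) and -1.44 at 4 h.

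Cytokinin counters auxin in root formation, and type-A response regulators are its early targets and feedback inhibitors. Of 5 kept, 1 was above 0 with a median of -0.32 (-0.16 without wild type 4 h repetition 2, -0.52 without repetition 1), and 0 passed. RR1 (LOC4335937) had 32.4 and 18.6 in crl1 at 4 h and 48 and 39.8 in crl1 at 0 h, against 14.8 and 28.7 in wild type at 4 h and 40.9 and 40.9 in wild type at 0 h. The difference was 0.15 ± 0.59 (-1.14 to 1.45), with opposite signs in the repetitions. RR2 (LOC4329677) had -0.18 ± 0.44 (-1.15 to 0.78), also with opposite signs, and RR4 (LOC4325747) -0.50 ± 0.34. LOGL3 (LOC4331344), a cytokinin-activating enzyme, had 237 and 416 in crl1 at 4 h and 1031 and 650 in crl1 at 0 h, against 709 and 542 in wild type at 4 h and 997 and 718 in wild type at 0 h. Its difference was -0.93 ± 0.44 (-1.90 to 0.04).

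The 2 responses that make up the difference passed the test in few genes. In crl1 5 probe sets (0.0154%) passed at 4 h, 1 higher (0.00307%) and 4 lower (0.0123%), and 16 did with repetition as a block. In wild type 6 (0.0184%) passed, 4 higher (0.0123%) and 2 lower (0.00615%), and 44 did with the block. Of the named genes, GH3.2 rose in both, as given above. CCA1 (LOC4344703), a transcription factor of the circadian clock, fell in both. It had 669 and 583 in crl1 at 4 h and 1944 and 2144 in crl1 at 0 h, against 786 and 738 in wild type at 4 h and 2668 and 2137 in wild type at 0 h. The response was -1.71 ± 0.18 in crl1 (limma adjusted p = 0.014) and -1.65 ± 0.18 in wild type (adjusted p = 0.02). The difference of these was -0.06 ± 0.25, and its interval of -0.62 to 0.50 was among the narrowest given here. CCA1 and the genes in the next paragraph are not named by the rule and were picked with their values in view.

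LOC4324218 had 184 and 148 in crl1 at 4 h and 19.2 and 29.8 in crl1 at 0 h, against 531 and 270 in wild type at 4 h and 6.06 and 15.8 in wild type at 0 h. It rose in wild type by 5.28 ± 0.45 (limma adjusted p = 0.0049), its crl1 response was 2.78 ± 0.45 (adjusted p = 0.13), and the difference was -2.49 ± 0.63 (-3.89 to -1.09; unadjusted p = 0.0024, adjusted p = 0.99). That it passed in wild type and not in crl1 does not show a difference between them. LOC4327187 fell in both genotypes, with responses of -2.89 ± 0.28 in crl1 and -3.15 ± 0.28 in wild type and a difference of 0.25 ± 0.40 (-0.63 to 1.14). LOC4326913 passed in crl1 in both of its probe sets, with responses of -2.96 ± 0.325 and -3.93 ± 0.423. It also fell in wild type, by responses of -2.43 ± 0.325 and -3.14 ± 0.423 that did not pass (limma adjusted p = 0.059 for both). The differences of its probe sets were -0.53 ± 0.46 and -0.78 ± 0.60. The wild-type rises of LOC4345848 and LOC4332570 were 2.36 ± 0.28 and 1.94 ± 0.25, beside crl1 responses of 1.99 ± 0.28 and 1.70 ± 0.25 that did not pass.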

How the data were processed

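Per the submitters' processing notes, the authors computed the deposited intensities with MAS5 in Affymetrix Expression Console. They are on a linear scale, and no version is given. All 12 columns of the table were matched to samples. The log2 of each signal was used with no scaling of its own. A rice probe set was kept if it exceeded its array's median on at least 2 of 12 arrays (32524 were), and 1 mean per group was fitted to all 12 arrays with limma 3.58.1 in R 4.3.3 (eBayes with an intensity trend, 6 residual degrees of freedom), with Benjamini-Hochberg adjustment over all kept probe sets and a two-sided threshold of 0.05. The scripts were tested on simulated data. Background is the 95th percentile of 64 reporter probe sets per array.

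A gene is its brightest kept probe set. Names come from the platform annotation and the RefSeq gene table (names only), and 22436 of 57194 rice probe sets have exactly 1 gene. The naming rule took genes past the threshold (0), then up to 12 named genes per direction with the lowest p among those at 1 log2 unit or more with the same sign in both repetitions and above background in at least 1 group, the member of each list with the lowest p, and WOX11, WOX9, RR1, RR2, GH3.2, IAA20, PIN2 and RAA1. Members and lists were chosen with earlier results of these data known. List members beyond this rule were picked with their values in view.

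The experiment was done in 2 independent repetitions and array titles carry the repetition number, so repetition was also fitted as a block. Deviations of same-numbered arrays from their group means correlated from 0.00776 to 0.249 between groups over all kept probe sets. Over bright ones the correlation was 0.233 to 0.613 within a genotype and -0.142 to 0.392 between genotypes. Whether repetitions used separate plants beyond that is not stated, and p-values measure the spread between these arrays. The number of arrays limits the precision. A search of promoters for motifs was not run, and no sequences were used here.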

Additional observations from a re-analysis of the deposited data

How the results depend on the processing

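For the difference of 4 h responses, 0 probe sets passed in all 22 settings, with 645 to 4099 at an unadjusted p under 0.05. With the replicate block, which pairs arrays by repetition, the lowest adjusted p was 0.872, and with a block within genotype 0.115.

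The wild-type 4 h count, 6, became 29 with the 8 arrays of 0 h and 4 h alone, 55 without wild type 2 h repetition 2, 44 with the replicate block, 78 with it within genotype, 13 with median centring, 11 with signals floored at background, 3 without the intensity trend, 108 with array weights and 582 with the 8 arrays and the block within genotype, a setting chosen after seeing the data. Leaving out 1 array of the contrast gave 0 (without wild type 4 h repetition 1) to 9 (without wild type 4 h repetition 2). The crl1 count, 5, became 10 without wild type 2 h repetition 2, 16 with the replicate block, 57 with it within genotype, 0 without the trend, 11 with array weights and 257 with the 8 arrays and the block within genotype. Leaving out 1 array gave 0 (without either crl1 4 h array) to 9 (without crl1 0 h repetition 2). The cause of these shifts was not tested.

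Of 57 named values of the difference, 52 kept their sign in all 21 alternatives, not all of which could change it. WOX9 was -0.16 with signals floored at background. The others changed sign only when 1 array was left out. Over all alternatives IAA20 (LOC4327919) ran from -0.82 to 0.21, PEROXIDASE (LOC4339222) from -0.15 to 0.64, RR1 from -0.32 to 0.63 and RR2 from -0.52 to 0.16. Of 39 list medians 21 kept their sign throughout. Leaving out 2 h arrays, fitting a block, dropping the trend or filter, or weighting arrays left every list median unchanged. A kept sign in those settings is therefore no check. Signs were open to change under the scalings, the floor, the added constant, 1 contrast array left out and, for lists, the stricter filter. The genes named as higher or lower were also chosen for the same sign in both repetitions. LBD factors and diterpenoid phytoalexin genes had no value at the stricter filter. The promoter motif search was not run. Among the genes named by the rule, probe sets near background limit AOS3, PIN2, WOX9, CSLF2 and MADS56 most. Outside the rule they also limit LOC4328018.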

Other observations

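Gene groups not described above gave 0 calls as well. Homeodomain factors of the HOX and ROC families had 26 of 31 members above 0 with a median of 0.32, and HOX1 (LOC4349388), a leucine-zipper homeodomain factor, had the lowest p there (0.97 ± 0.31, SE). The SPL factors had 8 of 11 above 0 and a median of 0.43. LG1 (LOC4337258), a gene of the leaf ligule, had the lowest p there (1.82 ± 0.84, -0.03 to 3.68). Its signal of 4.2 in crl1 0 h repetition 1 lay under that array's background of 12.6. Over the alternatives its difference ran from 0.78 to 2.75. Ethylene genes had 7 of 9 above 0 with a median of 0.46, where ETR3 (LOC4331174), an ethylene receptor, had 0.73 ± 0.39. Endoglucanases had 9 of 11 above 0 and a median of 0.37, which became -0.10 without wild type 0 h repetition 2, with GLU11 (LOC4346968) at 0.66 ± 0.45. NAC3 (LOC4342753), a NAC factor, had 1.00 ± 0.35 in a list with 3 of 7 above 0.

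Aquaporins had 8 of 23 above 0 and a median of -0.20 (0.049 after quantile normalization). Iron and zinc uptake genes had 12 of 34 above 0 and a median of -0.21 (-0.003 without wild type 4 h repetition 2), with NRAMP4 (LOC4324486) at 0.89 ± 0.44, whose other 2 probe sets gave -0.25 and 0.43. MADS factors had 7 of 17 above 0, and MADS47 (LOC4331872) had -0.86 ± 0.56. Heat shock genes had 18 of 43 above 0, and HSP17.9A (LOC4332357), a small heat shock protein, had -1.09 ± 0.56. Clock genes had 5 of 8 above 0 with PRR37 (LOC4344399) at 0.56 ± 0.37. Further members with the lowest p of their lists were HAK22 (LOC4342173, a potassium carrier, 1.05 ± 0.43), RAB16B (LOC4350453, a dehydrin, 1.90 ± 0.94), CIPK17 (LOC4337736, 0.95 ± 0.48), RAC1 (LOC4325879, a ROP GTPase, 0.52 ± 0.42), CYP99A2 (LOC4335096, 1.00 ± 0.88), RPL18 (LOC4334651, -0.31 ± 0.25), AS2 (LOC4324906, the 1 LBD factor kept, 0.71 ± 0.57) and PEROXIDASE (LOC4339222, 0.25 ± 0.49).

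Values of 2 genes without a name, picked with their values in view, follow. LOC4328018 had 98.6 and 93.8 in crl1 at 4 h and 33 and 55.2 in crl1 at 0 h, against 11.7 and 2.51 in wild type at 4 h and 35.9 and 52.4 in wild type at 0 h, for a difference of 4.18 ± 0.82 (2.37 to 5.98). In wild type at 4 h, 2.51 lay under its array's background of 9.89, and 11.7 lay little above that of 9.15. The size of this difference thus rests partly on a signal under background. LOC4337483 had 164 and 70.4 in crl1 at 4 h and 19.3 and 12.7 in crl1 at 0 h, against 86.4 and 134 in wild type at 4 h and 95.9 and 154 in wild type at 0 h. Its genotypes overlapped at 4 h and were apart by -2.95 ± 0.45 at 0 h, for a difference of 2.95 ± 0.64 (1.55 to 4.36). For both, the limma adjusted p of the difference was 0.99.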
